A study of Mus musculus with 28 samples.

Results

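The potassium channel genes of the mouse genome were followed in developing peripheral nerve. Membership was set by name: a protein-coding gene of the count table whose symbol is Kcn followed by letters and a number. The rule found 92 genes among the 41605 in the table, and 62 of them reached 1 CPM in at least 4 of the 28 libraries. These 62 reported genes are described below, the other 30 stayed under that limit, and 72 of the 92 passed the filter of the statistical test, the 62 among them. CPM is a gene's count per 1000000 counts of its library, with the library totals scaled by the TMM factors of edgeR.

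The libraries came from wild-type C57BL/6J mice that were not perfused, at 7 stages with 4 libraries each. The stages were embryonic day 13 and 17 as labelled (E13 and E17), postnatal day 1, 5, 14 and 24 (P1, P5, P14 and P24) and the young adult at day 60 (P60). Each E13 library pooled various nerves of 2 embryos taken distal to the dorsal root ganglia, with their outer sheaths left on, although the tissue label reads sciatic nerve at that stage too. Each E17 library pooled the sciatic nerves of 2 embryos, each postnatal library held those of 1 mouse, and from E17 on the epineurium and perineurium were peeled away. No stage carried a mutation or a treatment. In these bulk libraries, fewer cells of a type and less RNA per cell cannot be told apart.

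Potassium channels let potassium ions leave or enter cells along their electrochemical gradient and so set the resting potential and end each action potential. Voltage-gated channels (the Kv families) open on depolarization, inward rectifiers (Kir) pass current best near rest, K2P channels carry a pair of pore domains per subunit and leak, and the BK, SK and IK channels open with intracellular calcium. In myelinated nerve fibres, Kv1 channels sit on the axon beside the paranodes, under the myelin sheath, and Kv7 channels sit at the nodes of Ranvier. The messenger RNAs of axonal channels are made mostly in neuron cell bodies, which lie outside the nerve trunk, while Schwann cells, fibroblasts, vessels and immune cells express potassium channels of their own.

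The family is held together by the selectivity filter, the short stretch of the pore that sorts potassium from sodium. The coding sequences of all 92 genes (longest protein-coding transcript in GENCODE M21, GRCm38) were searched in frame, on the coding strand, for the 15 bases ACNNTNGGNTNNGGN. The motif was present in 64 of 77 genes for pore-forming subunits and in 0 of 15 genes for auxiliary subunits, against 0.87% of all 21486 protein-coding genes searched. A tighter form, ACNGTNGGNTANGGN, occurred in 25 genes of the genome, and 23 of these were potassium channel genes. It was present in 8 of 8 Kv1 genes and in 12 of 12 genes of the Kv2 group with its silent modifiers. The sequences below come from genes whose levels the results turn on, in the Kv1, BK, inward rectifier and K2P families. They are written 5′ to 3′ on the coding strand with 6 bases of flank, and the capitals mark the motif.
Kcna1, chr6:126642222-126642248: atgaccACTGTGGGATACGGTgacatg
Kcna2, chr3:107105218-107105244: atgacaACTGTAGGCTATGGAgacatg
Kcna6, chr6:126738641-126738667: atgaccACGGTAGGTTATGGGgacatg
Kcnma1, chr14:23528407-23528433: atgtctACAGTGGGTTATGGGgacgtt
Kcnj10, chr1:172369296-172369322: cagaccACCATCGGCTATGGCttccgc
Kcnj13, chr1:87389015-87389041: caacttACAATTGGTTATGGTaccatg
Kcnk2, first pore loop: atcacaACCATAGGATTTGGAaacatc
Kcnk2, second pore loop, chr1:189256575-189256601: ctgacgACCATTGGATTTGGAgactac
All lie in coding exons, and the first copy in Kcnk2 crosses an exon boundary. The motif occurred more than once in 11 of the 92 genes, each of them a K2P gene, of which 12 of 14 held it at all. Kcnk1, the K2P gene with the highest level in these nerves, held no copy, as did 7 of the 8 genes of the Kv10 to Kv12 group.

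Library totals ran from 13899895 to 37662780 counts. A group of 3 libraries stood apart from the others of their stage over all genes in step with GC content: E13 replicate 1, E13 replicate 4 and P1 replicate 1. The log2 deviation from the stage mean changed by -1.24, 0.97 and -0.57 per 10 points of GC content in them, against -0.21 to 0.26 in the other 25 libraries. Without these 3 libraries the counts of called channel genes given below were 53, 18, 10 and 39 for E17 against E13, P1 against E17, P5 against P1 and P60 against P1, the same as with them. Markers of neurons were summed over 10 genes and gave 2250 to 3760 CPM at E13, 93.4 to 145 CPM at E17 and 28.5 to 85.4 CPM in the postnatal libraries. All 10 were above 1 CPM at E13, and the genes of the nuclear proteins Isl1 and Rbfox3 went from means of 67.1 and 29.7 CPM at E13 to under 1 CPM at every later stage. Markers of Schwann cells, summed over 6 genes, gave 322 to 658 CPM at E13 and 49600 to 63300 CPM at P14, and all 6 were above 1 CPM at every stage except E17, where 5 were. The myelin gene Mbp made most of this sum after birth: its mean went from 1120 CPM at E17 to 51400 at P14, while Sox10, a Schwann cell transcription factor, went from 326 to 468 CPM and the receptor gene Erbb3 from 853 to 553.

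The comparison of E17 with E13 held the most called channel genes, in part because genes high at E13 alone were admitted. A gene was called when its adjusted p in edgeR's quasi-likelihood test over all 17700 genes tested lay under 0.05 with a fold change of 2 or more. By that rule 53 of the 72 tested channel genes were called at E17 against E13, 8 higher and 45 lower, where 35.5% of all genes were called (14.2% higher and 21.2% lower). Besides age, the E13 and E17 libraries differed in the nerves sampled and in whether the outer sheaths were removed. How much each contributed to these calls, and to the E17 against E13 differences of single genes below, was not tested. The filter let some genes in only because they were high at E13. Among the 45 reported genes that reached 1 CPM in 4 libraries without any E13 library, 8 were higher, 19 lower and 18 not called. Their median log2 fold change was -0.50, against -0.08 over all 17700 genes tested, a set that still holds genes admitted through E13. Of the 45, Kcna3 and Kcne3 reached the limit through the E17 libraries alone, where each was highest. The same 45 genes had as many calls at P60 against P1, 16 higher and 11 lower. The 17 genes that reached the limit through E13 alone were all lower at E17, as their choice through E13 requires, and their levels are given without a test.

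After E17 the calls were fewer and ran both ways. P1 against E17 gave 18 calls, 9 higher and 9 lower, where 11.7% of all genes were called (6.31% higher and 5.41% lower). P5 against P1 gave 10 calls, 6 higher and 4 lower, against 5.84% of all genes (4.05% higher and 1.79% lower), and with library size as the only scaling this split was 5 higher and 6 lower. P14 against P5 gave 14 calls, 9 higher and 5 lower, where 7.11% of all genes were called higher and 4.91% lower. P24 against P14 gave 5 calls, 2 higher and 3 lower, against 2.65% of all genes (1.51% higher and 1.14% lower), and without P24 replicate 3 it gave 3. P60 against P24 gave 11 calls, 6 higher and 5 lower, against 5.96% of all genes (2.55% higher and 3.41% lower). Over the whole postnatal span, P60 against P1, 39 of 72 channel genes were called, 20 higher and 19 lower, against 35.5% of all genes (20.3% higher and 15.2% lower). The test of any change over the 7 stages called 68 of 72, against 70.0% of all genes. These 72 hold the 17 genes that reached the limit through E13 alone, whose choice favours a change over the stages. They also hold 10 tested genes under the limit, of which 9 were called lower at E17.

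**Figure D1:**
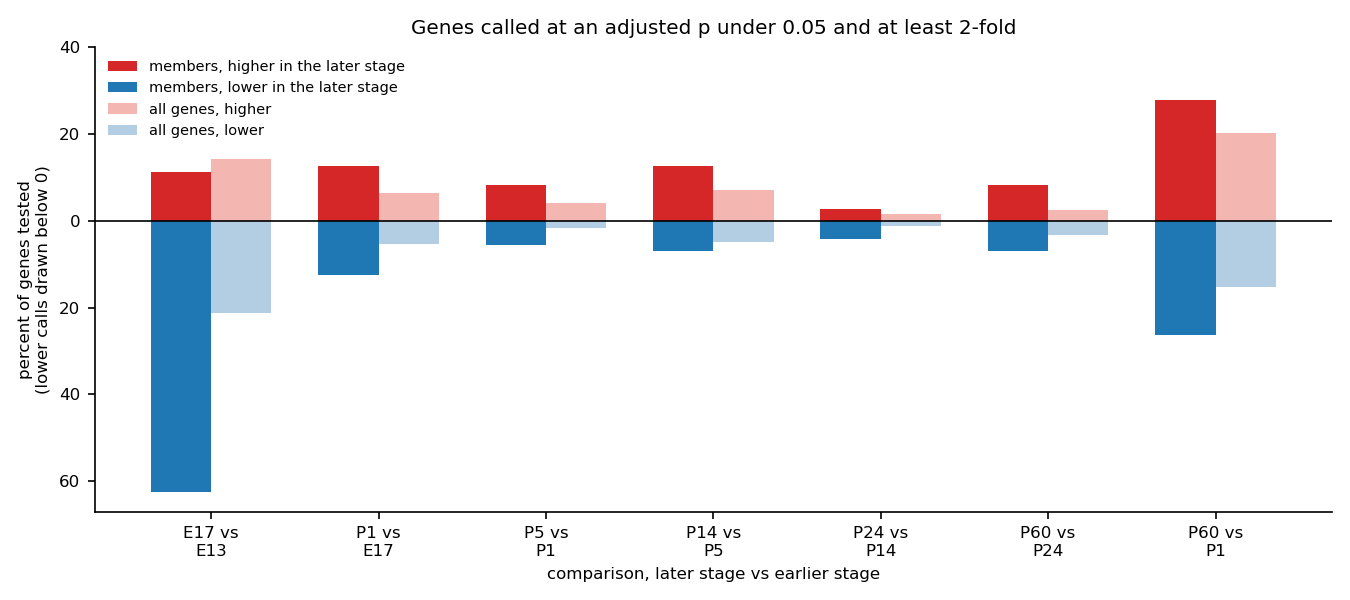
Percent of genes called in each comparison of a later with an earlier stage, for the 72 tested potassium channel genes (dark bars) and for all 17700 genes tested (pale bars), with calls for higher levels drawn above 0 and for lower levels below 0. The longest bar, 62.5% of channel genes lower at E17 than at E13, holds the 17 genes that reached the limit through E13 alone and 9 tested genes under the limit.

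The summed level of the 92 genes was 797 ± 37.7 CPM (SD, n = 4) at E13 and 1360 ± 44.7 CPM at E17. After birth the sum was 2200 ± 113 CPM at P1 and 1880 ± 80.3 CPM at P60, with means of 1780 to 2130 CPM between them. The number of genes behind it went the other way: 62 of the 92 had a mean of at least 1 CPM at E13, 34 had one at E17, 32 at P1 and 38 at P60, and these 62 are not the same set as the 62 reported. Of the reported genes 33 had their highest mean at E13 and 10 at E17, then 3, 2, 3, 3 and 8 at P1, P5, P14, P24 and P60. Of the 45 genes that reached the limit without E13, 16 were highest at E13, and the other 17 of the 33 were admitted by their E13 level. Over all genes called across the 7 stages, a set that also holds genes admitted through E13, 35.1% were highest at E13 and 23.5% at P60. Divided by exon length, the highest stage means belonged to Kcnj10 (127 CPM per kb at P1), Kcnk1 (103 at P60), Kcna6 (85.5 at E17), Kcna2 (79.9 at P60) and Kcna1 (78.1 at P14), followed at a distance by Kcnmb4 (15.8 at P24), Kcnk5 (13.1 at E17), Kcnh8 (11.8 at E17) and Kcnj13 (11 at P60).

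**Figure D2:**
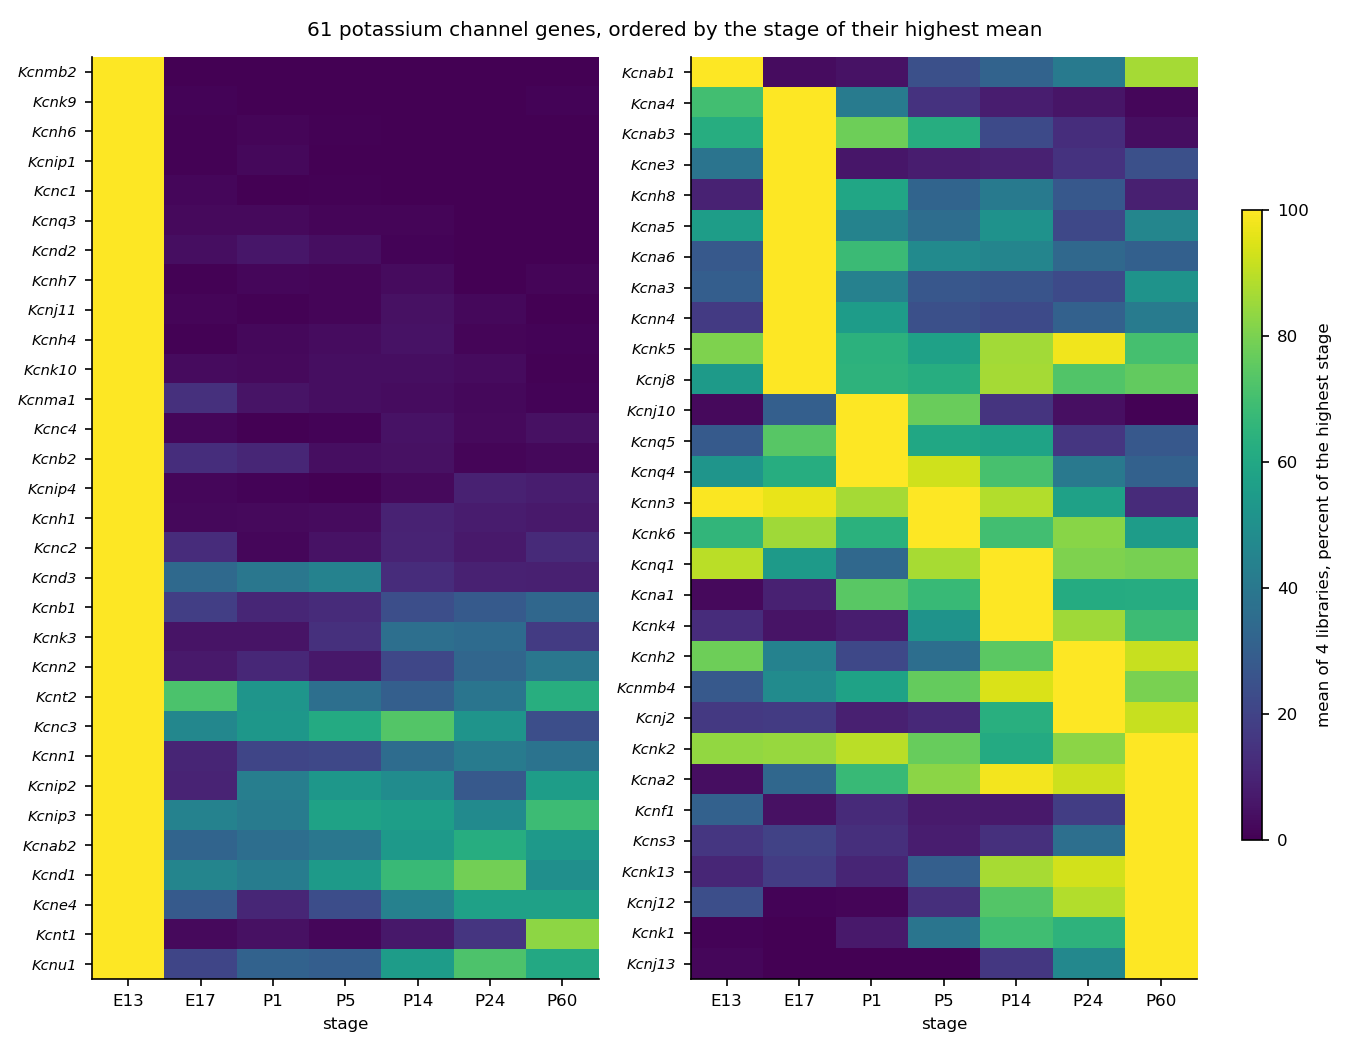
Stage means of 61 reported potassium channel genes, each as a percent of that gene's highest stage mean (colour), with stages on the horizontal axis and genes ordered by the stage of their highest mean. The left column and the first row of the right one hold 32 genes highest at E13, and the 8 genes highest at P60 stand at the bottom right.

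Among the Kv1 genes, which encode the delayed rectifier subunits of axons and glia, Kcna1, Kcna2 and Kcna6 were high and followed different courses. Kcna1 (chr6:126640397-126646384, minus strand) measured 9.59, 12.5, 8.33 and 4.73 CPM in the 4 E13 libraries, 30.4, 37.9, 29.2 and 42.5 at E17, and 275, 282, 257 and 298 at P1. The P1 libraries all lay above those of both embryonic stages, and the log2 fold change at P1 against E17 was 2.99 ± 0.17 (SE, adjusted p = 1.2e-13). Its means then were 252 ± 16.6 at P5, 374 ± 13.4 at P14, 230 ± 18 at P24 and 231 ± 12 CPM at P60. The 4 P14 libraries were the highest of the series for this gene, at 361 to 388 CPM, and the steps on either side of P14 were under 2-fold.

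Kcna2, whose subunit co-assembles with that of Kcna1 in axons, was also higher at E17 than at E13 and higher again at P1. Its values were 50.4, 42.5, 27.7 and 15.2 CPM at E13 and 304, 321, 315 and 335 at E17, with no overlap and a log2 fold change of 3.23 ± 0.22 (adjusted p = 7.9e-13). At P1 the libraries measured 705, 659, 567 and 632 CPM, a log2 fold change of 1.01 ± 0.20 against E17 (adjusted p = 0.00029). That step passed the 2-fold limit narrowly and fell below it in 9 alternatives of the processing, where it was 0.89 to 1.00. The later means were 787 ± 72.9, 934 ± 24.2, 880 ± 135 and 951 ± 71.8 CPM at P5, P14, P24 and P60, and the change from P1 to P60 was 0.57 ± 0.20 on the log2 scale (adjusted p = 0.0146), under 2-fold.

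Kcna6 ran the other way after birth. Its libraries held 118, 161, 148 and 143 CPM at E13 and 484, 524, 486 and 538 at E17 (log2 fold change 1.83 ± 0.10, adjusted p = 1.0e-14). The postnatal means were 346 ± 25.3 CPM at P1, 244 ± 14.9 and 232 ± 16.7 CPM in the P5 and P14 libraries, and 171 ± 15 and 155 ± 11.6 CPM in those of P24 and P60. Each step after E17 was under 2-fold, and the difference between P60 and P1 was called, at -1.16 ± 0.10 (adjusted p = 6.3e-11). In CPM per kb, Kcna6 was the highest of these 3 genes at E13 and E17 (24 and 85.5) and the lowest from P5 on (41 at P5 and 26.1 at P60, where Kcna1 had 48.3 and Kcna2 had 79.9).

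The less abundant Kv1 genes were highest at E17. Kcna4, which encodes a fast-inactivating subunit, measured 10.2, 11.4, 10.4 and 12.2 CPM at E17, 6.16, 3.75, 4.74 and 3.72 at P1 and 0, 0.508, 0.124 and 0.188 at P60. It fell between P1 and P60 by 4.47 on the log2 scale (SE 0.47, adjusted p = 5.3e-09). Kcna5, whose subunit is known from cardiac and vascular muscle, stayed between 0.523 and 6.32 CPM in all 28 libraries. Its fall at P24 against P14 (-1.25 ± 0.33, adjusted p = 0.0228) was no longer called when P14 replicate 1, P14 replicate 2, P24 replicate 2 or P24 replicate 3 was left out, with adjusted p values of 0.0604 to 0.0841 in edgeR's test. Over the 6 tested Kv1 genes, 4 were called higher at E17 against E13 and 0 lower, against 14.2% and 21.2% of all genes. The 4 take in Kcna3 (means of 0.441 CPM at E13 and 1.48 at E17), which reached the limit through the E17 libraries alone. At P60 against P1, 0 of the 6 were called higher and 2 lower, against 20.3% and 15.2% of all genes.

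**Figure D3:**
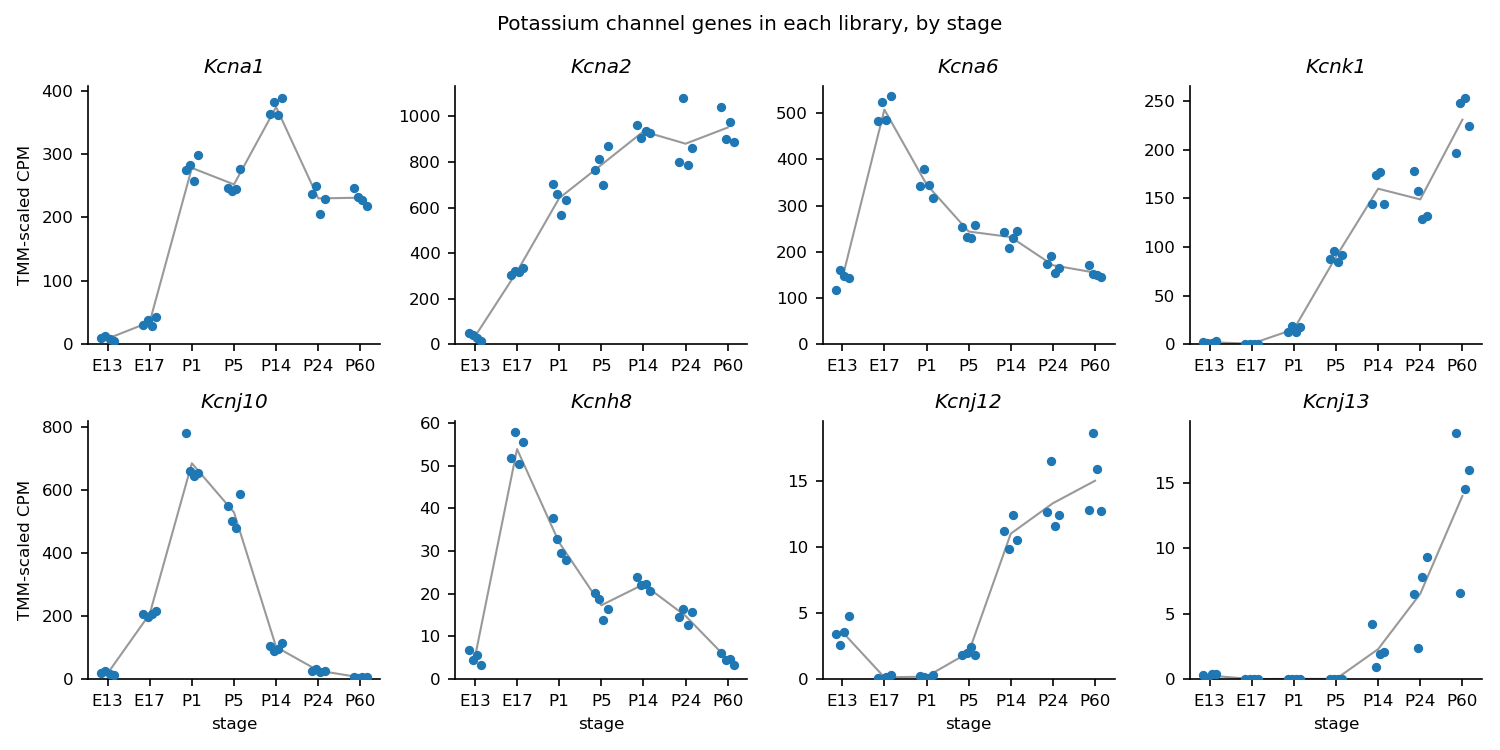
TMM-scaled CPM of 8 potassium channel genes in each of the 28 libraries (points), by stage, with a grey line through the stage means; every vertical axis starts at 0 and has its own range. Kcna1 and Kcna2 are high from P1 on, Kcna6 and Kcnh8 peak at E17, Kcnj10 peaks at P1 and has left 5.34 CPM at P60, and Kcnk1, Kcnj12 and Kcnj13 reach their highest means at P60.

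Kcnh8, a member of the ether-a-go-go related Kv10 to Kv12 group, was higher at E17 than at E13. Of the other members of its group, Kcnh1, Kcnh4, Kcnh6 and Kcnh7 reached the limit through E13 alone. The Kcnh8 libraries measured 6.88, 4.44, 5.70 and 3.21 CPM at E13, 51.8, 57.8, 50.5 and 55.6 at E17, and 6.14, 4.50, 4.66 and 3.33 at P60. The log2 fold change at E17 against E13 was 3.40 ± 0.19 (adjusted p = 1.5e-14), and at P60 against P24 it was -1.67 ± 0.19 (adjusted p = 2.6e-07), with no overlap in either. Between those ends the stage means went from 32.0 ± 4.30 CPM at P1 to 14.8 ± 1.65 at P24.

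On the log2 scale, the inward rectifier genes held the largest called fall and the largest called rises of all channel genes between P1 and P60. Kcnj10 (chr1:172341210-172374085, plus strand) encodes a glial inward rectifier that buffers extracellular potassium in the central nervous system. It measured 18.1, 25.0, 16.6 and 12.4 CPM at E13, 207, 198, 207 and 216 at E17, and 782, 662, 645 and 655 at P1. At P5 the libraries held 551, 504, 479 and 587 CPM, and at P14 105, 90.4, 96.1 and 115. At P24 they held 25.2, 32.3, 22.9 and 27.1 CPM, and at P60 5.55, 4.86, 5.41 and 5.52. No 2 stages from E17 to P60 overlapped in this gene. The log2 fold change was 3.52 ± 0.15 at E17 against E13 (adjusted p = 1.7e-16) and 1.73 ± 0.14 at P1 against E17 (adjusted p = 2.3e-10). The step to P5 was not called (-0.37 ± 0.14, adjusted p = 0.0624). It then fell by 2.38, 1.92 and 2.33 on the log2 scale over the next 3 steps, with standard errors of 0.15, 0.14 and 0.16. At P60 against P1 the difference was -7.00 ± 0.18 (adjusted p = 6.1e-21), 129-fold between the means. The 6 Schwann cell markers summed to 7890 to 14300 CPM at P1 and 28500 to 38200 CPM at P60. Of them, Sox10 had a mean of 354 CPM at P1 and 449 at P60, and Erbb3 one of 919 and 351 CPM. The part of a change in Schwann cell share in the fall of Kcnj10 was not tested.

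Kcnj12 and Kcnj2 encode the strong inward rectifiers known from muscle and vessels, and both rose after birth. Kcnj12 measured 3.41, 2.54, 3.57 and 4.79 CPM at E13, 0.219, 0.167, 0.0729 and 0.279 at P1, and 12.8, 18.6, 15.9 and 12.7 at P60. The rise was called at P5 against P1 (3.38 ± 0.34, adjusted p = 3.0e-08) and at P14 against P5 (2.45 ± 0.25, adjusted p = 2.1e-08), and P60 against P1 gave 6.28 ± 0.33 (adjusted p = 4.0e-15). Kcnj2 measured 2.75, 2.86, 2.44 and 3.12 CPM at P5 and 21, 10.9, 11.6 and 17.3 at P14, with no overlap (2.44 ± 0.42, adjusted p = 6.4e-05). Summed skeletal muscle markers had means of 2.67, 3.13, 14.8 and 9.23 CPM at P1, P5, P14 and P60. Those of pericytes and smooth muscle had 279, 422, 619 and 709 CPM. The part of these cells in the rises was not tested.

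Kcnj13 (chr1:87386363-87394729, minus strand), an inward rectifier of low conductance known from epithelia, was at 0 in all 4 E17 libraries and in 5 of the 8 libraries of P1 and P5. It measured 4.19, 0.960, 1.92 and 2.09 CPM at P14, 6.54, 2.41, 7.80 and 9.33 at P24, and 18.8, 6.60, 14.5 and 16 at P60. Against P1, where no library had more than 3 counts, the P60 mean of 14 ± 5.24 CPM was at least 112-fold higher, taking 3 counts in the shallowest P1 library as the limit. The steps at P24 and P60 were not called (1.51 ± 0.45, adjusted p = 0.052, and 1.10 ± 0.43, adjusted p = 0.0912). Its exons overlap those of Gigyf2 on the opposite strand, which held 55807 counts over all libraries against 1603 for Kcnj13, and whether the counting used strand is not given in the sources used here.

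Within a stage, Kcnj13 and Kcnj2 were lowest in the same library. It was replicate 2 at P14, at P24 and again in the adult, 3 separate mice, with Kcnj2 values of 10.9, 7.95 and 12.5 CPM. At P24, where Kcnj2 spread from 7.95 to 41.8 CPM, replicate 2 was also lowest in the summed markers of pericytes and smooth muscle (480 CPM against 644 to 728), of endothelium (247 against 333 to 378) and of adipocytes (1.41 against 37.7 to 74.0). It was lowest there in fibroblast (3300 CPM against 5840 to 6330), macrophage (126 against 180 to 210) and mast cell markers (6.23 against 9.62 to 17.6) as well, and highest in Schwann cell markers (52700 against 41000 to 48900). At P14 it was lowest in the sum of the pericyte and smooth muscle markers (581 CPM against 601 to 665) and not in the adipocyte markers. The single markers were split there. Replicate 2 was lowest in Myh11 (29.3 CPM) and shared the lowest value of Des (6.04). It was not lowest in Rgs5, Acta2, Cspg4, Pdgfrb or Notch3, and it was highest in Higd1b (4.01 CPM). The part of these cells in the values was not tested. At P60 replicate 2 was lowest in adipocyte (51.3 CPM against 61.9 to 144) and mast cell markers (27.1 against 40.9 to 44.0) and not in pericyte and smooth muscle markers (702 against 676 to 737). Kcnj8, the ATP-sensitive inward rectifier subunit by which pericytes and vascular muscle are recognised, stayed at stage means of 6.42 to 11.8 CPM and was not called over the 7 stages, while the 8 pericyte and smooth muscle markers summed to 229 ± 16.6 CPM in the E17 libraries and to 709 ± 26.2 CPM in the adult ones. Its relative Kcnj11, the subunit of pancreatic beta cells and neurons, measured 1.52, 3.43, 2.85 and 3.31 CPM at E13 and 0 to 0.204 CPM in every later library. It reached the limit through E13 alone.

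Of the K2P genes, which encode leak channels, 9 were tested, and 4 were called higher and 1 lower at P60 against P1, against 20.3% and 15.2% of all genes. Kcnk1 (chr8:125995170-126030685, plus strand) had the largest rise in CPM among them. It measured 2.42, 1.45, 1.52 and 3.10 CPM at E13, 0.550, 0.634, 0.310 and 0.628 at E17, and 12.3, 19.0, 12.1 and 18.1 at P1. The values were 87.6, 96.1, 84.3 and 91.5 CPM at P5 and 197, 248, 253 and 224 at P60, above every library up to P24. The log2 fold change was 4.89 ± 0.25 at P1 against E17 (adjusted p = 1.2e-14) and 2.55 ± 0.18 at P5 against P1 (adjusted p = 4.9e-11). The means at P14 and P24 were 160 ± 18.1 and 149 ± 23.1 CPM. Over the same stages the mean of Mbp was 1120 CPM at E17, 51400 at P14 and 28300 at P60, and that of Sox10 326, 468 and 449 CPM. Their part in the rise of Kcnk1 was not tested.

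Kcnk13, a halothane-inhibited K2P channel known from microglia, rose at P5 and again at P14. Its libraries measured 0.838, 1.87, 0.620 and 1.33 CPM at P1, 3.42, 2.81, 4.02 and 3.67 at P5, and 9.25, 11.8, 9.59 and 9.45 at P14. None of these stages overlapped, and the log2 fold changes were 1.58 ± 0.29 (adjusted p = 0.00026) and 1.53 ± 0.27 (adjusted p = 7.6e-05). Summed macrophage markers were 89.4 ± 7.61 CPM at P1, 188 ± 11.8 at P5 and 158 ± 23.8 at P14. Kcnk4, a mechanosensitive K2P channel of nodes of Ranvier, stayed near the limit: its highest library held 1.38 CPM (P14 replicate 1), and it was called higher at P5 against P1 (2.54 ± 0.66, adjusted p = 0.0067) from 0.0752 ± 0.0634 to 0.487 ± 0.253 CPM. Its exons overlap those of Catsperz on the same strand, with 264 and 675 counts in all, so the reads of the overlap cannot be assigned with certainty.

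A set of 4 reported genes was not called over the 7 stages: Kcnj8 and the K2P genes Kcnk2, Kcnk5 and Kcnk6, the last of them chosen after its values were seen. All 4 had an adjusted p under 0.05 with stage means less than 2-fold apart. Kcnk2, a K2P channel gated by stretch and heat, held 13.7 to 28.9 CPM in all 28 libraries, and its difference at P60 against P1 was 0.16 ± 0.15 on the log2 scale (adjusted p = 0.358), or -0.04 with library size as the only scaling. Kcnk5, an acid-sensitive K2P channel, held stage means of 25.5 to 44.6 CPM, and its lowest library was E13 replicate 1 at 15.9 CPM, which is 1 of the libraries that stood apart by GC content.

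Kv7 genes encode the channels of the M current, which restrains repetitive firing. Kcnq3, which encodes a subunit of neuronal M channels, measured 18.2, 9.36, 7.11 and 6.52 CPM at E13 and 0 to 0.502 CPM in all later libraries, and it reached the limit through E13 alone. Kcnq5, another M current subunit, was highest at P1: it held 12.4, 10.4, 9.15 and 6.76 CPM at P1 and 1.18, 1.93, 1.43 and 1.54 at P24, and it fell at P24 against P14 (-1.87 ± 0.24, adjusted p = 1.3e-05). The neuron markers were 2250 to 3760 CPM in sum where Kcnq3 was high and 93.4 to 145 CPM at E17. Their part in its level was not tested.

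The 17 genes reported through E13 alone took in Kcnq3, Kcnj11, Kcnip1, Kcnk9 and Kcnh6, and 3 of the 4 Kv3 genes of fast-spiking neurons. In each of the 17 the lowest E13 library was above every one of the 24 later libraries, a pattern that the limit itself favours and that is given as a description. In the 16 of them shown here the E13 libraries ran from 1.16 to 41.3 CPM and the later ones reached at most 1.09 CPM, with 3 genes reaching 1 CPM in any later library. Kcnip1, a calcium-binding partner of Kv4 channels, measured 41.1, 24.8, 41.3 and 38.4 CPM at E13 and 0.385, 0.264, 0.233 and 0.126 at E17. Kcnk9, an acid-sensitive K2P channel of neurons, measured 1.42, 4.48, 7.50 and 7.41 CPM at E13 and 0 to 0.155 CPM later. E13 replicate 1, which stood apart by GC content, was its lowest E13 library.

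**Figure D4:**
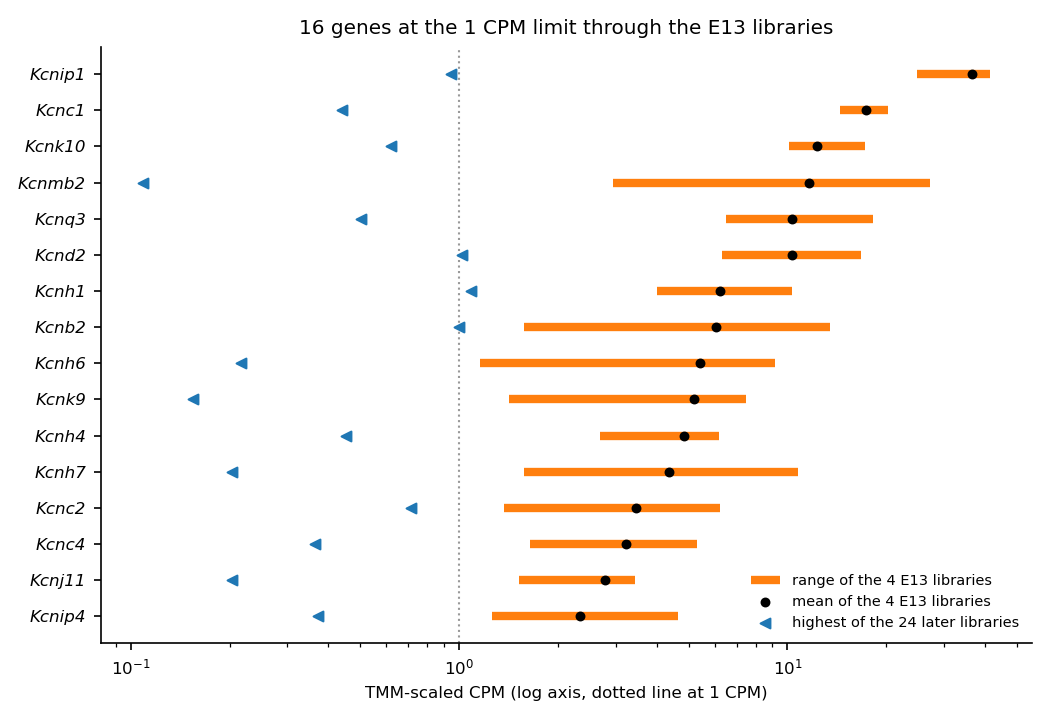
A set of 16 potassium channel genes that reached 1 CPM in 4 libraries through E13 alone. Orange bars give the range of the 4 E13 libraries, black points their mean and blue triangles the highest of the 24 later libraries, on a log axis of TMM-scaled CPM with a dotted line at 1 CPM; in every gene the triangle lies left of the bar.

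Among calcium-activated channels, Kcnma1, the pore-forming BK subunit, measured 33.2, 18.4, 15.5 and 11.1 CPM at E13 and 2.91, 2.96, 2.48 and 2.64 at E17. It was lower still at P1 (-1.41 ± 0.34, adjusted p = 0.00205) and held 0.126 to 0.290 CPM at P60. The auxiliary BK subunit Kcnmb4 went a different way, from 14.6 ± 4.09 CPM at E13 to 52.6 ± 8.83 at P24 and 42.1 ± 7.15 at P60, in steps each under 2-fold. Kcnn4, the IK channel of blood and secretory cells, was highest at E17 (9.78, 10.6, 9.42 and 9.11 CPM) and fell at P5 against P1 (-1.18 ± 0.26, adjusted p = 0.00153). Kcnn3, an SK channel of neurons and endothelium, held 4.92 ± 2.01 CPM at P24 and 1.17, 1.09, 1.31 and 0.690 CPM at P60 (-2.23 ± 0.37, adjusted p = 8.1e-05), with no overlap. Summed endothelial markers were 247 to 378 CPM at P24 and 410 to 450 CPM at P60, and their part in the level of Kcnn3 was not tested.

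The 6 genes called higher at P60 against P24 took in Kcnt1, Kcnf1 and Kcns3. Kcnt1, a sodium-activated channel of sensory and central neurons, measured 11.8, 12.3, 10.5 and 10.1 CPM at E13, 0.128 to 0.220 CPM at P5, 0.642 to 2.84 CPM at P24, and 17.8, 11.8, 4.54 and 3.08 at P60. The 4 P60 libraries lay above the P24 ones but spread widely among themselves. The log2 fold change was 2.46 ± 0.47 (adjusted p = 0.00046). Kcnf1 and Kcns3 encode silent subunits, which form no channel alone and modify those of the Kv2 family. Kcnf1 measured 0.788, 0.993, 1.18 and 0.903 CPM at P24 and 5.04, 4.21, 6.15 and 6.09 at P60 (2.46 ± 0.35, adjusted p = 1.1e-05). Kcns3 measured 1.53, 2.26, 1.88 and 1.33 CPM at P14, 5.67, 3.35, 4.64 and 4.93 at P24, and 11.7, 13.7, 12.6 and 12.7 at P60, with no overlap at either step (1.41 ± 0.29, adjusted p = 0.00303, and 1.45 ± 0.28, adjusted p = 0.00047).

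The other cell types of the nerve also differed between these stages. Summed adipocyte markers were 1.41 to 74.0 CPM at P24 and 51.3 to 144 at P60, and summed neuron markers 58.9 to 64.2 and 71.2 to 85.4 CPM. Mast cell markers were 6.23 to 17.6 CPM at P24 and 27.1 to 44.0 at P60, and endothelial markers 247 to 378 and 410 to 450 CPM. The neuron, mast cell and endothelial sums did not overlap between these stages. Nor did the Schwann cell sums, which were lower at P60 (41000 to 52700 and 28500 to 38200 CPM). Skeletal muscle (13.4 to 18.5 and 7.4 to 10.9) and erythroid sums (58.2 to 150 and 16.7 to 34.7) were lower without overlap too. Of the neuron markers Snap25 alone was called (means of 3.52 and 8.45 CPM). Nefm (12.2 and 10.9) and Elavl3 (0.616 and 0.433) were lower at P60, and the others higher. The part of these cells in the rises was not tested.

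The auxiliary subunits did not move as a block. Kcnab1 and Kcnab3, cytoplasmic beta subunits of Kv1 channels, went in opposite directions after birth. Kcnab1 measured 15.5, 7.34, 10.1 and 4.15 CPM at E13, 0.474, 0.416, 0.437 and 0.496 at P1, and 7.60, 7.11, 7.89 and 9.48 at P60, a log2 fold change of 4.12 ± 0.37 at P60 against P1 (adjusted p = 2.0e-10). Its exons overlap the antisense gene A330015K06Rik, which held 8677 counts against 2366. Kcnab3 measured 4.59, 5.62, 4.70 and 4.68 CPM at P1 and 0.146, 0.290, 0.124 and 0.377 at P60 (-4.35 ± 0.37, adjusted p = 7.6e-11). Kcnab2, the remaining beta subunit, held 26.4 ± 8.36 CPM at E13, 8.5 ± 1.21 at E17 and 14.2 ± 2.04 at P60, and its difference at P60 against P1 was under 2-fold (0.58 ± 0.22, adjusted p = 0.0252).

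The KChIP gene Kcnip2 had a mean of 4.53 ± 1.08 CPM at E13 and was lower at E17. It rose in part at P1, from 0.550, 0.211, 0.543 and 0.502 CPM at E17 to 1.53, 2.21, 1.86 and 2.14 at P1 (2.08 ± 0.30, adjusted p = 5.7e-06). Kcnd3, a Kv4 subunit of the kind that KChIP proteins bind, held 9.88, 9.59, 10.4 and 10.8 CPM at P5 and 3.17, 2.37, 2.78 and 3.30 at P14 (-1.80 ± 0.31, adjusted p = 6.9e-05). Of the KCNE genes, Kcne3 measured 1.76, 1.37, 2.44 and 1.82 CPM at E17 and 0 to 0.291 at P1. It reached the limit through the E17 libraries alone, which favours a fall from E17, so its levels are given without a test. Kcne4 fell at P1 against E17 (-1.41 ± 0.43, adjusted p = 0.0146). That call was lost without E17 replicate 1 or P1 replicate 2 (adjusted p = 0.0537 and 0.0587).

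A list of 20 genes whose products anchor or escort potassium channels was read beside them, of which 17 were tested. At P60 against P1, 3 were called higher and 5 lower, against 20.3% and 15.2% of all genes. Epb41l3, the cytoskeletal linker 4.1B of paranodes and juxtaparanodes, measured 282, 293, 276 and 277 CPM at P1 and 46.3, 35.8, 37.5 and 35.8 at P60 (-2.86 ± 0.16, adjusted p = 2.2e-14). Kcnrg, named for its likeness to channel regulators, fell from a mean of 4.28 CPM to 1.02 (-2.08 ± 0.41, adjusted p = 7.7e-05). The BK subunit gene Lrrc55 fell from 0.997 CPM to 0.0471, at least 4.55-fold, and Dpp10, a partner of Kv4 channels, went from 0.136 CPM to 0, too few counts for a fold. Of the 3 that rose, Amigo1, an adhesion protein that binds Kv2 channels and was named here after its values were seen, went from 13.7 CPM to 43.3 (1.66 ± 0.13, adjusted p = 9.1e-12).

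At the edge of the limit, the reported genes with the lowest fourth-highest library were Kcnk4 (1.00 CPM), Kcnq1 (1.10) and Kcnh6 (1.16), and those just outside it were Kcnj9 (0.894), Kcnj3 (0.789) and Kcns1 (0.749). Kcnq1, a Kv7 channel of heart and epithelia, overlaps the antisense transcript Kcnq1ot1, which held 11786 counts against 476. Of the 30 genes under the limit, 28 had a count in some library and 16 of these had their highest stage mean at E13, while Kcnj1 and Kcnmb3 had no count in any library.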

How the data were processed

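RNA of peripheral nerve was measured by single-end sequencing of stranded poly-A libraries, 28 in all, mapped to the 7 stages by their labels. The authors trimmed reads, aligned them with STAR 2.6.1c and counted reads per gene with featureCounts on Ensembl annotation; the deposited values are raw counts, not normalized. The build is GRCm38.p5 in the submitters' notes and a human build name in the methods. Strand and multi-mapping settings are not given in the sources used here. Symbols, exons and coordinates came from GENCODE M21 (GRCm38), 1-based.

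Genes were filtered with filterByExpr (17700 kept) and tested with edgeR 4.0.16 (R 4.3.3), with TMM scaling, 1 robust quasi-likelihood fit over all libraries and the stage as the only term, and Benjamini-Hochberg adjustment over all genes tested. Standard errors are the log2 fold change over the square root of F. The script was tested on simulated data. The alternatives used other scaling, other filters, DESeq2 1.42.0, limma 3.58.1 voom, a replicate block, compared stages alone, no E13 libraries and each library left out.

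Named genes were a fixed set of 12, the 3 largest called rises and 3 largest called falls per comparison (mean of at least 1 CPM, more than 3 counts in a library of each stage), the 10 highest per kb and the 3 genes on either side of the limit. The members and lists were chosen with earlier results of these data known. All labels of 1 stage name 4 separate samples; the sex of single libraries was not used. No library pair held identical values. Totals of 13899895 to 37662780 counts limit the precision of genes with a few counts, and lower bounds cover counting error only. The values of 1 named gene are not reported here, although it stays in the counts.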

Additional observations from a re-analysis of the deposited data

Results flagged for a closer look

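A library was marked where its gap to the nearest library of its stage took up more of the stage's range than Dixon's 95% limit for 4 values allows. This held for 14 of 185 groups of a named gene and a stage, where chance marks about 1 in 20, and the values are given without a cause. At E17, Kcnk5 was 36.2 CPM in replicate 1 against 47.0 to 47.9 in the other libraries, Kcns3 was 4.56 in the same library against 1.74 to 2.06, Kcnd3 was 10.1 in replicate 2 against 7.03 to 7.21, and Kcnab3 was 6.05 in replicate 3 against 6.34 to 6.39. At P1, 2 of the marks fell on replicate 1, a library that stood apart by GC content: Kcnj10 was 782 CPM against 645 to 662, and Kcnmb4 was 19.6 against 32.7 to 35. Others at P1 were Kcnab3 at 5.62 CPM in replicate 2 against 4.59 to 4.70, Kcnj8 at 9.84 in replicate 3 against 6.62 to 7.10, and Kcnk5 at 34.3 in replicate 3 against 26.5 to 26.8. At P5, Kcna1 was 276 CPM in replicate 4 against 241 to 246, Kcnip2 was 1.92 in replicate 1 against 2.52 to 2.63, and Kcnn4 was 1.69 in replicate 2 against 2.54 to 2.65. At P14, Kcnab1 was 5.42 CPM in replicate 1 against 1.80 to 2.32, and Kcnk13 was 11.8 in replicate 2 against 9.25 to 9.59.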

How the results depend on the processing

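Of 1693 alternative values for 102 named gene results, 1626 kept direction and call, 66 lost the call and 1 turned: Kcnk2 at P60 against P1, -0.04 with library size as the only scaling, which moved the median of all genes by -0.19 there and by -0.25 at E17 against E13. For P24 against P14, 8 genes were called with no fold change minimum and 8 with limma-voom, and leaving out a library gave 3 to 6; the cause was not tested. The other counts stayed within 1.5 times. With single libraries left out they were 52 to 54 (E17 against E13), 15 to 18 (P1 against E17), 8 to 10 (P5 against P1), 11 to 16 (P14 against P5), 10 to 13 (P60 against P24), 35 to 40 (P60 against P1) and 68 to 70 (any change), and 49 to 62 genes were reported, by construction fewer without an E13 library. Replicate numbers did not pair the samples: deviations of same-numbered libraries correlated at -0.202 to 0.571, above 0.1 in 33 of 84 pairs. With the replicate block the counts were 53, 17, 10, 14, 6, 12 and 38, and 66 for any change. Genes with a few counts per library are limited by depth.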
